A study of Homo sapiens with 4 samples.

Results

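The cell cycle cyclins and their kinases CDK1 and CDK2 were followed in hTERT RPE-1 cells during the later hours of exposure to merbarone. The 10 genes, chosen by their current NCBI symbol, were CCND1, CCND2, CCND3, CCNE1, CCNE2, CCNA2, CCNB1, CCNB2, CDK1 and CDK2, and all 10 were found among the 23459 genes that each library lists. RPE-1 is a wild-type human line of retinal pigment epithelial cells, made immortal by telomerase reverse transcriptase (hTERT), and merbarone is a catalytic inhibitor of the type II DNA topoisomerases. All cultures had been held for 48 h in medium with 0.1% FBS, which arrests cells in G0/G1, before 200 μM merbarone was added, and RNA was taken after 4 h (2 libraries) or 8 h (2 libraries). Untreated cells were not analysed here, so every comparison is of 8 h against 4 h, and time of exposure cannot be told apart from further time in low serum.

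Cyclins are the regulatory subunits that switch on the cyclin-dependent kinases (CDKs), and they are known for appearing and disappearing in turn as a cell divides. D-type cyclins respond to growth factors and act with CDK4 and CDK6 in G1, E-type cyclins act with CDK2 at the entry into S phase, cyclin A2 acts with CDK2 and later CDK1 through S and G2, and B-type cyclins act with CDK1 at mitosis. The genes of the later cyclins and of CDK1 are held off in resting cells by pocket protein complexes and are transcribed as cells leave G1.

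Counts on genes ranged from 8064450 to 10324697 per library, with the smallest in replicate 2 at 8 h, and the 12559 genes that exceeded a CPM of 1 in 2 or more libraries were tested. Normalized counts are given here after TMM, scaled to the mean effective library size of 9586677 counts, and log2FC is that of 8 h against 4 h. Of 15 markers of retinal pigment epithelium, 7 passed the CPM filter and 3 (TYR, DCT and CRX) had no count in any library. The transcription factor genes MITF and OTX2 had 669 to 882 and 132 to 193 counts, while RPE65, the visual cycle isomerase of the mature tissue, had only 2 to 7. The summed level of these 15 markers was 906.0 and 947.4 CPM at 4 h against 826.3 and 885.9 CPM at 8 h. Most of it came from KRT8, KRT18 and TJP1 (352, 335 and 116 CPM in replicate 1 at 4 h). KRT18 was lower at 8 h (335 and 367 to 245 and 250 CPM), and MITF, KRT8 and TJP1 were level or higher on average. Of 7 mesenchymal markers, 6 passed the filter (COL1A2 had 0 to 2 counts), and their sum was 22846 and 22565 CPM at 4 h against 28166 and 29539 CPM at 8 h, nearly all from FN1 and VIM, while COL1A1 went from 82.1 and 85.0 to 42.8 and 53.7 CPM. None of 5 blood markers and 1 of 3 endothelial markers (KDR) passed. The summed mesenchymal level differed between the times, and its part in the results was not tested.

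Most of the cyclins and both kinases were lower at 8 h than at 4 h. With edgeR's quasi-likelihood test and a Benjamini-Hochberg adjusted p below 0.05, 7 of the 10 genes were lower (CCNE2, CCNB1, CCNA2, CDK1, CDK2, CCNB2 and CCND1), against 18.8% of all retained genes. CCND2 alone of the 10 was higher, against 19.9% of all genes, and CCND3 and CCNE1 did not pass. These shares stand for 2367 genes lower and 2500 higher, but 3289 and 1698 with library size alone, where the counts of the 10 genes were the same. With an absolute log2FC above 1 as well, 5 of the 10 were lower (3.88% of all genes) and CCND2 was higher (1.45% of all genes). CCNB2, at a log2FC of −0.96, lay just short of that fold threshold. Over all genes, 487 were lower and 182 higher past the fold threshold, but 641 and 125 when scaled by library size alone, and 344 and 260 when the dependence of log2FC on mean log2 CPM was removed. In the former, CCNB2 joined the 5 genes past the threshold, and in the latter the count stayed at 5. With glmTreat, which tests for a change beyond a log2FC of 1, only CCNB1 and CCNE2 of the 10 passed, and CCND2 did not. Both 8 h libraries lay below both 4 h libraries for the 7 genes that fell, where 34.9% of all genes did so, and above them for CCND2, where 34.8% did so. The median log2FC of the 10 genes was −1.01, beside 0.00 for all retained genes. The 10 genes were chosen with earlier results of these data known, so these shares and medians are a description only. In bulk RNA, fewer cells in a cycle phase and less RNA per cell cannot be told apart.

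**Figure D1:**
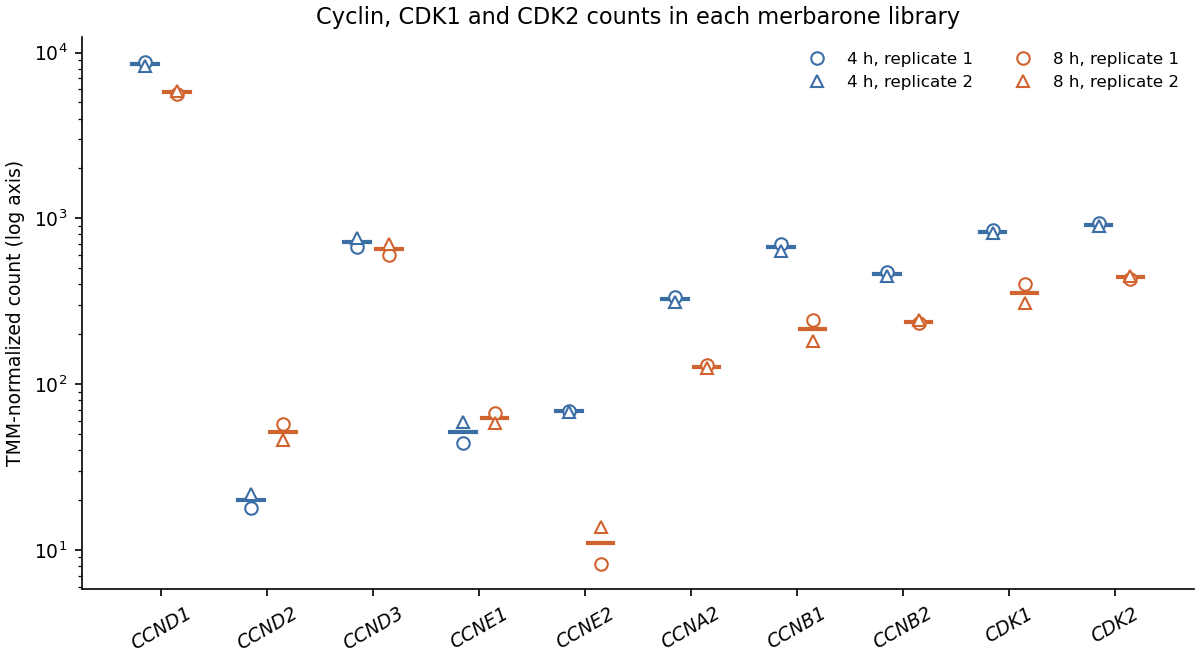
TMM-normalized count of each gene (log axis) in the 4 libraries, with circles for replicate 1, triangles for replicate 2 and bars for the mean of each time (blue 4 h, orange 8 h). CCNE2 shows the widest gap, from 69.1 and 68.0 down to 8.18 and 13.7, while the times overlap for CCND3 and CCNE1.

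Because CDK1, CCNB1, CCNB2 and CCNA2 fell together and CCNE1 did not pass the test, their promoters are shown here, from 250 bases before to 49 after the first transcribed base, which is position 0. The sequences are those of RefSeq on GRCh38.p14, which holds windows for 6 of the 10 genes (none for CCND1, CCND2, CCNE2 and CDK2). Capitals mark matches, on either strand, to CCAAT (bound by NF-Y), to TTTGAA or TTCGAA (forms of the cell cycle genes homology region, CHR, through which the MuvB complexes bind) and to TTTCCCGC, TTTGGCGC or TTTCGCGC (forms of the E2F site). For CDK1, which has 2 windows that share 153 bases, the downstream one is shown.
CCNB1, chr5:69166900-69167199, plus strand: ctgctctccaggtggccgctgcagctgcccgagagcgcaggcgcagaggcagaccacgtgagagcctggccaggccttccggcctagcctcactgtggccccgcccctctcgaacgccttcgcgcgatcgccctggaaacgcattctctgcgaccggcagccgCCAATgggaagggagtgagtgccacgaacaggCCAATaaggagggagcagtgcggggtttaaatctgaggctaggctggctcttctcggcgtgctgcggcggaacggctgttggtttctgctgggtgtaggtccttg
CCNB2, chr15:59104896-59105195, plus strand: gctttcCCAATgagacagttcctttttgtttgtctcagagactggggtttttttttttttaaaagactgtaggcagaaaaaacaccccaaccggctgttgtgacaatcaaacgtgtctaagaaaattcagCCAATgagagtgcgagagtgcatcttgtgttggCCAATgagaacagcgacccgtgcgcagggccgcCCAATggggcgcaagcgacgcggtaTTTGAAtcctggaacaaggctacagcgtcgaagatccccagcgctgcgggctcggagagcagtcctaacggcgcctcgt
CDK1, chr10:60778228-60778527, plus strand: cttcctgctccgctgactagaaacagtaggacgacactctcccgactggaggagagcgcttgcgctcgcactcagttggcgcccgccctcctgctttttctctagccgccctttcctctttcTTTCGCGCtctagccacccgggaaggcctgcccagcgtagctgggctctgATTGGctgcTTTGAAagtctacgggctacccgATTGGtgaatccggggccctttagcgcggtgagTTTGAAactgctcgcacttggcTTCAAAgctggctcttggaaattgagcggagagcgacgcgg
CCNA2, chr4:121823834-121824133, minus strand: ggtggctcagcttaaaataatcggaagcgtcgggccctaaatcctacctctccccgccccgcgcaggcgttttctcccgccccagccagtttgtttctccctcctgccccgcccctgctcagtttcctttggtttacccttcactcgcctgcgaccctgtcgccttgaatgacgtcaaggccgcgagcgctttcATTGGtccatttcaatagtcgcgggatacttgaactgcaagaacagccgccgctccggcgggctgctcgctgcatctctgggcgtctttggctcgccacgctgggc
CCNE1, chr19:29811741-29812040, plus strand: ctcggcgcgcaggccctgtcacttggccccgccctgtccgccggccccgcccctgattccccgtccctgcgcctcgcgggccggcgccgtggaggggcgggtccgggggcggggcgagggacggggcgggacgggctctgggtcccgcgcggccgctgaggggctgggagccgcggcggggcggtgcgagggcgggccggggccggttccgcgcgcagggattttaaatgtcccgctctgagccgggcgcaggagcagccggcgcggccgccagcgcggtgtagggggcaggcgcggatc

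All 4 of the promoters of genes that fell held CCAAT, which 34.6% of all 35116 windows hold and 34.8% of those of retained genes. CCNB2 had 4 matches, CCNB1 and the shown CDK1 window 2 each, and CCNA2 1. The match nearest the start began 55 bases before it in CCNB1, 54 in CCNB2, 46 in the shown CDK1 window and 56 in CCNA2. In the upstream CDK1 window, the CCAAT match began 150 bases before the start. That window had TTTGAA 161 bases before the start and TTTCGCGC 19 bases after it. CCNB2 had 1 match to TTTGAA, 29 bases before the start, and the shown CDK1 window had 3, of which 2 lay before the start (69 and 13 bases) and 1 after it. A form of the CHR searched here is in 16.4% of all windows and 11.9% of those of retained genes, and none was in those of CCNB1 or CCNA2. Only those exact letters were searched, so a CHR of another form would not be marked. The CCNA2 window holds cttgaa, which differs from TTTGAA in its first base and was left unmarked. CDK1 held TTTCGCGC, 1 of the 3 E2F forms searched, any of which is in 2.74% of all windows and 4.19% of those of retained genes. CCNA2 held TGACGTCA, the cyclic AMP response element (CRE), 81 bases before the start. The CRE is in 1.85% of all windows and 2.82% of those of retained genes. CCNE1 had no CCAAT and none of the CHR or E2F forms searched in its window. It had 7 matches to GGGCGG, the GC box bound by SP1, which 45% of windows and 66.3% of those of retained genes hold. GC boxes were also in the windows of the genes that fell, with 3 in CCNA2, 2 in each CDK1 window, 1 in CCNB1 and 1 in CCNB2, where it overlaps the nearest CCAAT by 2 bases. Of the 3 windows of CCND3, which did not pass the test either, 2 had 1 CCAAT each, 136 and 64 bases before their starts. These 3 windows had 5 and 4 GC boxes in 2 of them, and none of the CHR or E2F forms searched. TGACTCA, the AP-1 site found in 4.95% of all windows and 3.51% of those of retained genes, was in none of the windows of the 6 genes. A match of letters is not a bound site.

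**Figure D2:**
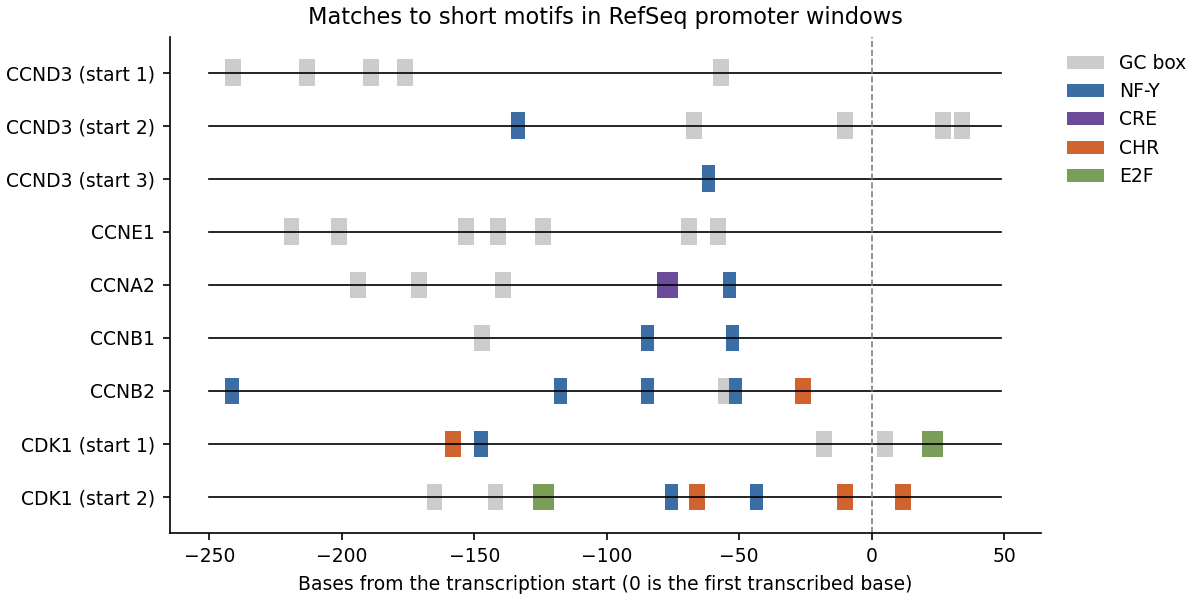
Positions of motif matches in the 9 RefSeq windows of 6 genes, in bases from the transcription start (0), with colours for the kind of motif. In CCNA2, CCNB1, CCNB2 and the downstream start of CDK1 a CCAAT match (blue) lies 46 to 56 bases before the start. At the upstream start of CDK1 it lies 150 bases before, and at start 2 and start 3 of CCND3 136 and 64. CCNE1 shows GC boxes only.

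The D-type cyclins, which couple growth factor signals to CDK4 and CDK6, moved in different directions. CCND1 (NCBI Gene 595, chromosome 11, 69455924 to 69469242, plus strand, hg19), by far the most abundant of the 10, had normalized counts of 8791 and 8325 at 4 h against 5651 and 5893 at 8 h. Both 8 h libraries lay below both 4 h libraries, and the change from 8558 ± 329 to 5772 ± 172 (SD, n = 2 each) was a log2FC of −0.57 (standard error, SE, 0.07, edgeR adjusted p = 3.58e-06), or 67.4% of the 4 h level. CCND1 shares 497 of its 4761 exon bases with LTO1 on the opposite strand, whose own counts were far lower (293 and 347 at 4 h, 212 and 225 at 8 h, normalized). CCND2 (894, chromosome 12, 4378937 to 4414519, plus strand) went the other way from a low level, with normalized counts of 17.9 and 21.8 at 4 h against 57.3 and 46.0 at 8 h. These values rest on 20 and 24 counts at 4 h and on 56 and 37 at 8 h. CCND2 overlaps a protein-coding gene on the same strand and, among others, CCND2-AS1 on the opposite strand. None of the genes that overlap it is listed in the libraries, and their part in its counts was not tested. The 8 h libraries lay above the 4 h libraries, and the rise from 19.9 ± 2.69 to 51.6 ± 7.99 (SD, n = 2 each) was a log2FC of 1.38 (SE 0.30, edgeR adjusted p = 0.00112). CCND3 (896, chromosome 6, 41902672 to 42018095, minus strand) had 673 and 762 normalized counts at 4 h against 597 and 702 at 8 h, so the times overlapped. Its log2FC of −0.15 had an approximate 95% interval from −0.35 to 0.05 (edgeR adjusted p = 0.270), which does not reach a change of 1 in either direction. Without replicate 2 at 8 h its adjusted p was 0.0484, with a log2FC of −0.26.

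The E-type cyclins, the partners of CDK2 at the start of S phase, did not move together: CCNE2 had the lowest log2FC of the 10 genes, and CCNE1 did not pass the test. CCNE2 (9134, chromosome 8, 95891998 to 95908906, minus strand) had normalized counts of 69.1 and 68.0 at 4 h against 8.18 and 13.7 at 8 h. The counts behind them were 77 and 75 at 4 h against 8 and 11 at 8 h, and the groups were far apart. The log2FC was −2.67 (SE 0.33, edgeR adjusted p = 3.83e-06), a 6.35-fold lower level and the 8th lowest log2FC of the 12559 genes tested. With 1 library left out in turn it ran from −3.05 to −2.32. INTS8, on the opposite strand, shares 1629 of the 4397 annotated exon bases of CCNE2 and had 290 and 298 normalized counts at 4 h against 214 and 191 at 8 h, and whether strand was used in counting is not given in the sources used here. CCNE1 (898, chromosome 19, 30302898 to 30315219, plus strand) had 43.97 and 58.9 normalized counts at 4 h against 66.5 and 58.4 at 8 h. The times overlapped, and its log2FC of 0.29 had an approximate 95% interval from −0.19 to 0.76 (edgeR adjusted p = 0.370). At 47 to 65 counts per library, a change of that size was not detectable.

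The cyclins of S phase to mitosis fell together. CCNA2 (890, chromosome 4, 122737599 to 122745038, minus strand), which encodes the cyclin of S and G2, had normalized counts of 337 and 313 at 4 h against 130 and 124 at 8 h. The replicates of each time lay close and the times far apart, with a log2FC of −1.35 (SE 0.14, edgeR adjusted p = 4.29e-07). EXOSC9, on the opposite strand, shares 254 of the 2748 exon bases of CCNA2. It had 207 and 215 normalized counts at 4 h against 169 and 83.2 at 8 h. CCNB1 (891, chromosome 5, 68462962 to 68474072, plus strand), the main mitotic cyclin, had normalized counts of 704 and 637 at 4 h against 244 and 183 at 8 h. The fall from 670 ± 46.8 to 214 ± 43.7 (SD, n = 2 each) was a log2FC of −1.64 (SE 0.13, edgeR adjusted p = 1.10e-08), which left 32.1% of the 4 h level. CCNB2 (9133, chromosome 15, 59397325 to 59417244, plus strand), the second B-type cyclin, had normalized counts of 473 and 451 at 4 h against 233 and 242 at 8 h. Its log2FC was −0.96 (SE 0.11, edgeR adjusted p = 2.68e-06), or 51.4% of the 4 h level, with the groups again apart. With no TMM factors, CCNB2 also passed the fold threshold, at −1.07.

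Both catalytic subunits fell. CDK1 (983, chromosome 10, 62538089 to 62554610, plus strand), the kinase of mitosis, had normalized counts of 848 and 811 at 4 h against 400 and 311 at 8 h. CDK2 (1017, chromosome 12, 56360565 to 56366573, plus strand), the kinase of the S phase entry, had 938 and 894 at 4 h against 433 and 447 at 8 h. In both genes the 8 h libraries lay below the 4 h libraries. CDK2 shares 89 of its 3887 exon bases with PMEL on the opposite strand, which had 7 to 12 counts per library. The log2FC was −1.22 for CDK1 (SE 0.11, edgeR adjusted p = 1.03e-07) and −1.06 for CDK2 (SE 0.09, edgeR adjusted p = 6.67e-08), so that 43.1% and 48.0% of the 4 h levels remained. Replicates differed by more than counting error in some of the genes. The normalized ratio of replicate 2 to replicate 1 at 8 h was 0.777 for CDK1 (95% counting interval 0.660 to 0.913) and 0.747 for CCNB1 (0.604 to 0.921), from exact binomial limits that cover counting error only. For CDK2 it was 1.03 (0.896 to 1.19), for CCNB2 1.04 (0.854 to 1.26) and for CCNA2 0.957 (0.729 to 1.25), all of which include 1. CCND3 lay the other way, at 1.18 (1.05 to 1.32), as did CCND1 by less, at 1.04 (1.003 to 1.08). At 4 h the interval left out 1 for CCND3 (1.13, 1.02 to 1.25) and CCND1 (0.947, 0.920 to 0.974). Without replicate 2 at 8 h, the log2FC of CCNB1 was −1.46 and that of CDK1 −1.05, and without replicate 1 at 8 h they were −1.88 and −1.42.

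**Figure D3:**
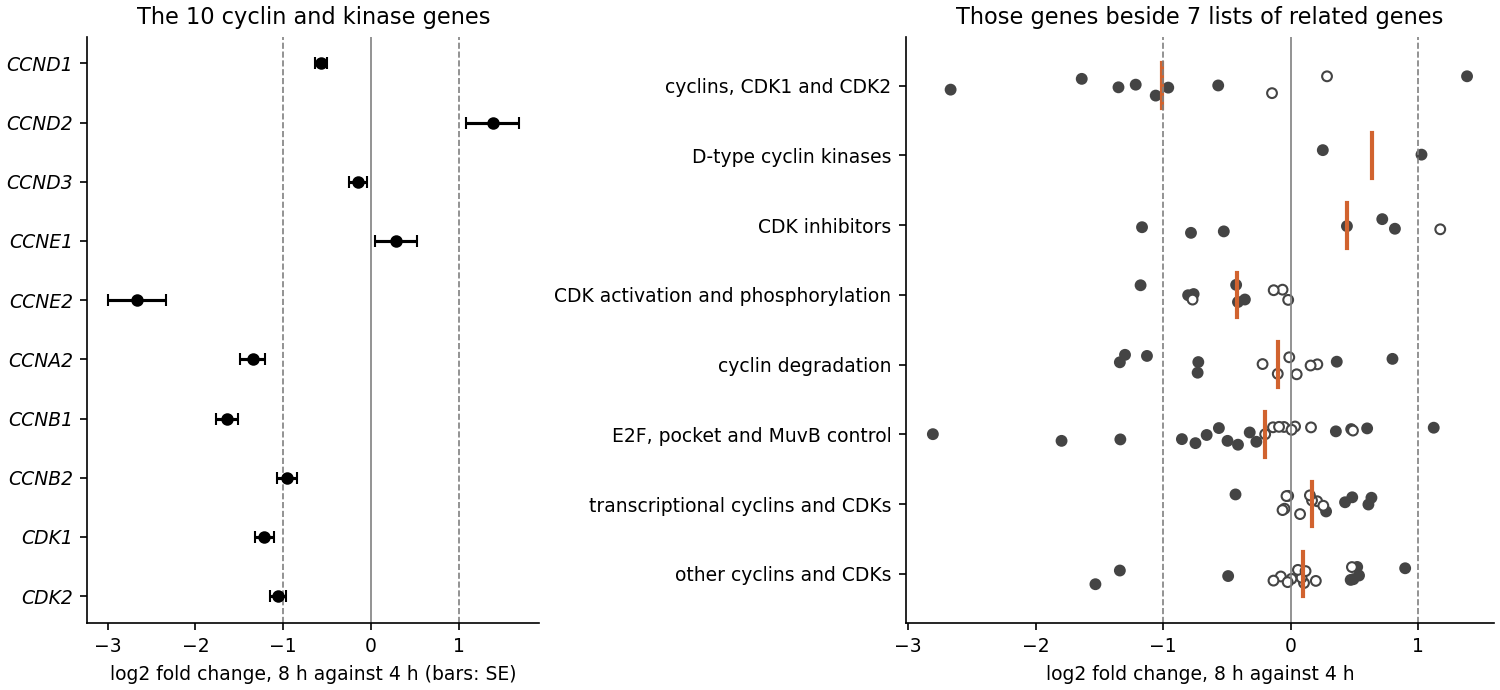
Left, log2FC of 8 h against 4 h with its standard error (SE) for the 10 genes, and right, log2FC of the same genes and of each retained gene of 7 lists of related genes (filled, adjusted p below 0.05, open, not below it, orange bar, median). Dashed lines mark a log2FC of −1 and 1. The cyclins, CDK1 and CDK2 have a median of −1.01, and the medians of the 7 lists lie between −0.42 and 0.64.

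Levels of different genes were compared as CPM per kilobase of annotated exon, after TMM. At 4 h the order was CCND1 (188 ± 7.22 CPM per kilobase, SD, n = 2), CCNB1 (28.7 ± 2.01), CDK2 (24.6 ± 0.83), CDK1 (22.1 ± 0.69), CCNB2 (17.5 ± 0.57), CCND3 (13.0 ± 1.13), CCNA2 (12.3 ± 0.64), CCNE1 (2.18 ± 0.45), CCNE2 (1.63 ± 0.02) and CCND2 (0.259 ± 0.035). Of the neighbours in this order, the replicates overlapped for CCND3 and CCNA2 only. At 8 h CCND1 was still first, at 126 ± 3.76, followed by CDK2 (11.8 ± 0.28), CCND3 (11.8 ± 1.34), CDK1 (9.48 ± 1.68), CCNB1 (9.16 ± 1.87), CCNB2 (9.01 ± 0.24), CCNA2 (4.82 ± 0.15), CCNE1 (2.65 ± 0.24), CCND2 (0.674 ± 0.104) and CCNE2 (0.259 ± 0.092). The replicates overlapped between CDK2 and CCND3, between CDK1 and CCNB1, and between CCNB1 and CCNB2. CCNE2 and CCND2 thus changed places at the bottom of the order, and CCNB1 moved from the second place to the fifth. Among the 12291 retained genes with an exon length, CCNB1 stood at percentile 88.9 at 4 h and 64.4 at 8 h, CCNE2 at 21.3 and 3.73, and CCND1 at 99.0 and 98.0. Only reads with a single genomic position were kept. CCND2, CCND3 and CCNB2 have annotated pseudogenes, and the part of these in the levels was not tested. Bowtie loses reads that cross splice junctions, so levels between genes also depend on exon structure. Only 56.2% of the length of the longest CCNE1 transcript can start a read of 75 bases within an exon, against 91.3% for CCND1. Such starts were counted in the longest transcript alone, whereas exon length joins the exons of all annotated transcripts. CDK1 has 3909 exon bases in all, 1948 in its longest transcript and 1368 such starts. For CCND3 these are 5761, 2394 and 2024, so the 2 lengths differ by more than junctions. With the number of such starts in place of exon length, CDK1 (63.3) and CCNB1 (51.3) followed CCND1 at 4 h and CCND3 (33.5) and CDK1 (27.1) did so at 8 h, while CCNA2, CCNE1, CCNE2 and CCND2 kept their places at both times.

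The 8 cyclins summed to 269 and 257 CPM per kilobase at 4 h against 163 and 167 at 8 h. CCND1 made up 71.5% and 71.0% of this sum at 4 h against 76.1% and 77.3% at 8 h. With CCND1 left out, CCNB1 held the largest share at 4 h, 39.3% and 36.7%, and 27.0% and 20.7% at 8 h. The share of CCND3, whose own level overlapped between the times, was 15.9% and 18.5% at 4 h against 27.9% and 33.6% at 8 h. CCNB2 kept between 22.8% and 24.3% in every library. These shares are a description, since a fall in some cyclins raises the share of the others. The shares also depend on the length used. By read starts within exons of the longest transcript, mean levels at 4 h were 51.3 for CCNB1 and 37.0 for CCND3. At 8 h they were 16.3 and 33.5.

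**Figure D4:**
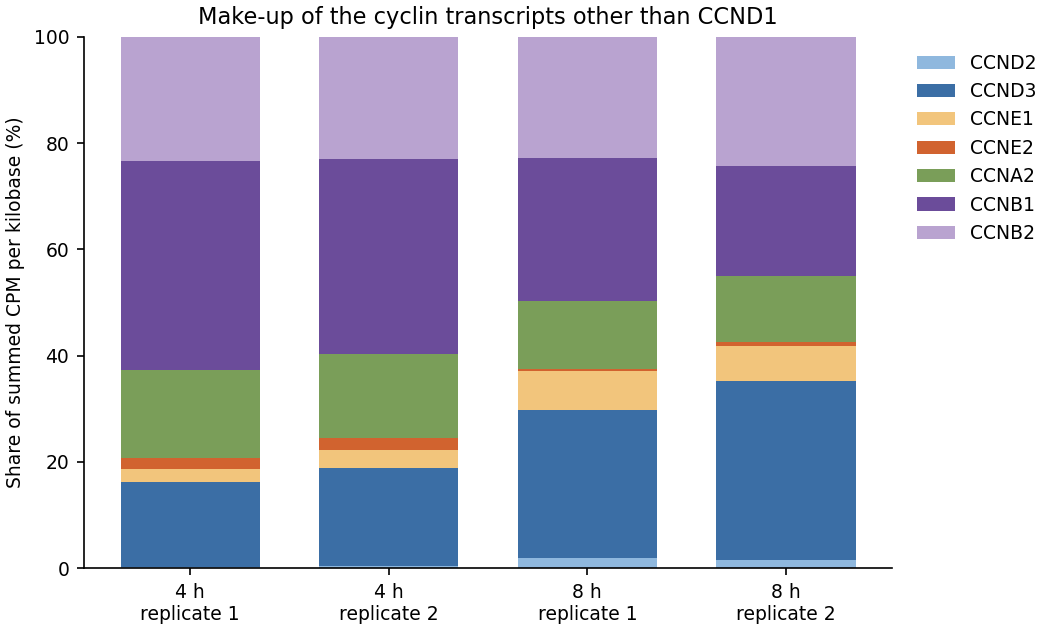
Share of each cyclin other than CCND1 in their summed CPM per kilobase (y axis, percent), 1 bar per library. CCNB1 goes from 39.3% and 36.7% at 4 h to 27.0% and 20.7% at 8 h and CCND3 from 15.9% and 18.5% to 27.9% and 33.6%.

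Ratios of counts within a library do not depend on how libraries are scaled, and 6 were compared. With 2 libraries per time, the exact permutation test (two-sided) cannot give a p below 0.33, so none could pass 0.05. CCNE1 had 0.636 and 0.867 counts for each count of CCNE2 at 4 h against 8.13 and 4.27 at 8 h, a 7.93-fold higher ratio (exact permutation p = 0.33, adjusted 0.40). The ratio of CCNB1 to CCNB2 was 1.49 and 1.41 at 4 h against 1.05 and 0.754 at 8 h, 1.63-fold lower. CCND2 had 0.00204 and 0.00261 counts per count of CCND1 at 4 h against 0.0101 and 0.00780 at 8 h, and the ratio of CCND3 to CCND1 went from 0.0766 and 0.0915 to 0.106 and 0.119. The ratio of CCNB1 to CCND1 was 0.0800 and 0.0766 at 4 h against 0.0433 and 0.0310 at 8 h. In these 5 ratios the times did not overlap (exact permutation p = 0.33 and adjusted 0.40 for each). CDK1 to CDK2 was 0.904 and 0.908 at 4 h against 0.924 and 0.694 at 8 h, so the times overlapped (exact permutation p = 1), and a difference between the falls of the kinases was not detectable.

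**Figure D5:**
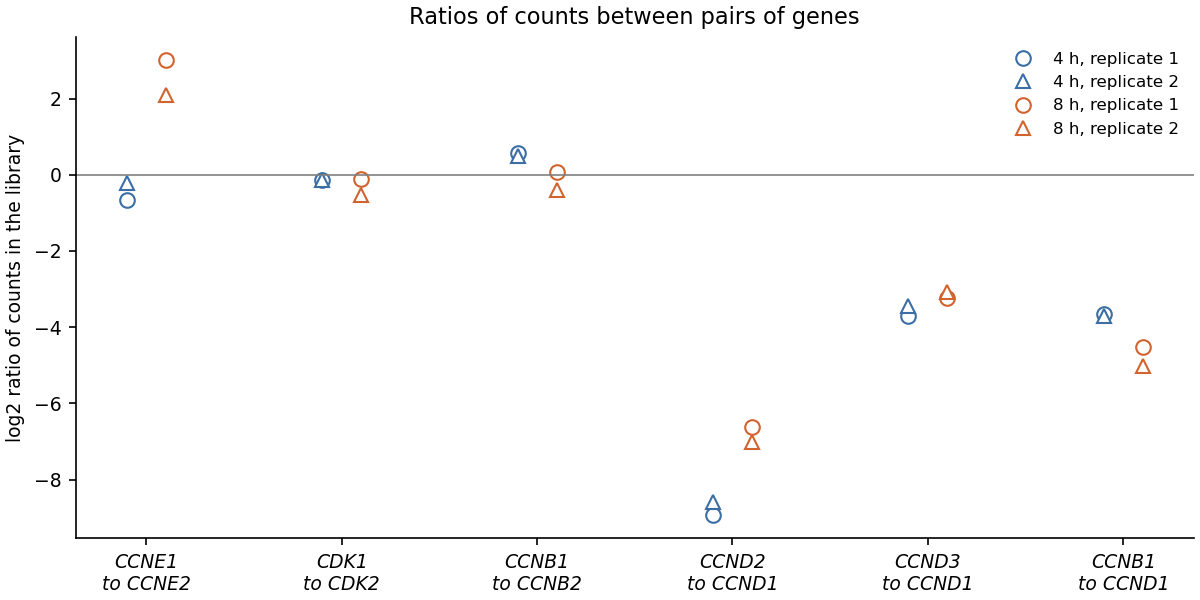
log2 of the ratio of counts between pairs of genes in each library (blue 4 h, orange 8 h, circles replicate 1, triangles replicate 2). CCNE1 to CCNE2 rises from 0.636 and 0.867 to 8.13 and 4.27 as plain ratios, and CDK1 to CDK2 is the only pair in which the times overlap.

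Genes that act on these cyclins and kinases, and further cyclins and CDKs, were described from 7 lists. Counts are given at an edgeR adjusted p below 0.05, beside 2367 lower and 2500 higher of the 12559 genes tested. Both catalytic partners of the D-type cyclins were higher at 8 h. CDK6 went from 620 and 514 normalized counts to 1118 and 1194 (log2FC 1.03, SE 0.10, edgeR adjusted p = 1.59e-07) and CDK4 from 1970 and 2149 to 2586 and 2315 (log2FC 0.25, SE 0.08, edgeR adjusted p = 0.0191). Of the 7 CDK inhibitor genes, 3 were higher (CDKN1A, CDKN1B and CDKN2A), 3 were lower (CDKN2B, CDKN2C and CDKN2D) and CDKN1C, with 10 to 25 counts per library, did not pass. Where a list had 5 or fewer calls in 1 direction they are all named here, some of them after their values were seen. The most abundant, CDKN1A, which encodes p21, rose from 36830 and 34018 to 61310 and 63568 normalized counts (log2FC 0.82). CDKN2C, an INK4 inhibitor of CDK4 and CDK6, fell from 424 and 466 to 216 and 179 (log2FC −1.17). Of 10 genes for CDK activation and phosphorylation, 6 were lower and 4 did not pass (median log2FC −0.42). CDC25C, a phosphatase that activates CDK1, went from 158 and 146 to 72.6 and 60.9 normalized counts (log2FC −1.18). CDC25B, the most abundant of this list, had a log2FC of −0.43, and CDK7 and CCNH of the CDK-activating kinase had −0.020 and −0.064 and did not pass.

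Of 13 genes of cyclin degradation, 5 were lower (CDC20, UBE2C, CCNF, SKP2 and FBXO5) and 2 higher (FBXW7, 0.80, and AMBRA1, 0.36). The falls with a log2FC below −1 were those of CDC20 (−1.30), the activator of the anaphase-promoting complex in mitosis, UBE2C (−1.13), its ubiquitin-conjugating enzyme, and CCNF (−1.34), an F-box protein. SKP1, the most abundant of the list, had a log2FC of −0.10 and did not pass. Of 23 genes of the E2F, pocket protein and MuvB machinery, 11 were lower and 4 higher (E2F3, E2F5, E2F7 and NFYA). E2F2 (−2.81), E2F8 (−1.80) and the pocket protein gene RBL1 (−1.34) were lower and E2F5 (1.12) higher past the fold threshold, while FOXM1, the most abundant of these genes, had a log2FC of −0.41. The cyclins and CDKs that serve RNA polymerase II and splicing differed in direction, with 1 of 15 lower (CCNL2, −0.43, also the most abundant) and 5 higher (CCNL1, CCNT1, CCNT2, CDK9 and CDK13, from 0.28 to 0.63). Of the 23 other cyclin and CDK genes, 18 were retained, of which 3 were lower (CCNF, CDK14 and CDK15) and 5 higher (CCNG1, CCNG2, CCNI, CCNJ and CDK17). CCNI, the most abundant, had a log2FC of 0.47, and CDK15, with a log2FC of −1.53, rested on 7 to 42 counts per library. The 7 lists hold 90 different genes, and of the 85 retained 28 were lower and 21 higher. With library size alone these counts were 32 and 17, so the number of rises depended on the scaling.

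The genes with the most similar pattern were sought among 9389 retained genes with a mean count of at least 100, by the distance between log2 CPM values centred on each gene's mean over the 4 libraries. Nearest to CDK1 were TRAF5 (distance 0.017, log2FC −1.22), SHCBP1 (0.070, log2FC −1.27) and NUP85 (0.080, log2FC −1.20). Among the nearest to CCND1 were SLC29A2 (0.015, log2FC −0.60) and TTC31 (0.026, log2FC −0.57). CCNE2 had more distant neighbours, BUB1B (0.423, log2FC −2.17), DLGAP5 (0.466, log2FC −2.01) and KIF20A (0.534, log2FC −2.04). With 8 to 77 counts per library CCNE2 itself lay below the count limit. Genes of like depth, such as E2F2 with 13 to 128 counts, were thus not searched. A small constant was added to CPM before the log, which lessens changes at low levels. With 4 libraries, such a likeness is a description only.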

How the data were processed

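Poly(A) RNA libraries (stranded, single reads) of 2 cultures per time were compared. The authors mapped reads to hg19 with Bowtie 1.2.0, kept reads with a single genomic position and deposited raw counts per gene, which are neither normalized nor filtered. The annotation, the counting tool and the use of strand are not given in the sources used here. The labels also list deepTools 2.4.1. Of the 23459 listed genes, 23308 matched a symbol in the RefSeq table of GRCh38.p14 (names and promoters), and positions on hg19 came from GENCODE on GRCh37.

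From these counts, genes that exceeded a CPM of 1 in 2 or more libraries were retained, TMM factors were calculated, and 8 h was tested against 4 h in edgeR 4.0.16 (R 4.3.3) by glmQLFit and glmQLFTest, adjusted over all retained genes by Benjamini-Hochberg. The standard error is the size of the log2FC divided by the square root of F. Limma-Voom (limma 3.58.1), the test of the paper, DESeq2 1.42.0, glmTreat, other scalings and filters, a block for replicate number and the omission of each library were alternatives. The biological coefficient of variation was 6.52%, and p-values measure the spread between these libraries. The code was tested on simulated data. The named genes are the 10 members, genes of the lists past the thresholds, the most abundant gene of each list and the 3 nearest neighbours of CDK1, CCNE2 and CCND1, of which 1 is not reported here. Members and lists were chosen with earlier results of these data known.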

Additional observations from a re-analysis of the deposited data

How the results depend on the processing

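The log2FC of the 10 genes kept its direction in all 120 refits (12 alternatives for each gene), and its side of an adjusted p of 0.05 in 119. The exception was CCND3, whose log2FC ran from −0.26 to −0.031 with 1 library left out in turn. Library size alone moved the median log2FC of all genes to −0.11, and all 10 genes kept their direction. With glmTreat, which tests for a change beyond a log2FC of 1, 2 of the 10 genes (CCNB1 and CCNE2) were lower and 0 higher, against 58 and 26 of all genes and 1 and 0 of the list genes. With DESeq2, 1498 of all genes were lower without a fold threshold. With library size alone, 1 list gene was higher past the fold threshold, and with 1 library left out in turn 0 to 3 were. Leaving out 1 library gave 1509 to 2294 genes lower and 1605 to 2534 higher without a fold threshold, and the lone library of a time was then assumed to vary like the others. The counts that fell by over 1.5 times were those without replicate 1 (1509 and 1605) or replicate 2 (1522 and 1619) at 4 h. With the number of read starts within exons of the longest transcript as length, CCND1 made up 62.8% of the cyclin level at 4 h and 67.2% at 8 h.

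The times share replicate numbers, and with these as a block 7 of the 10 genes were lower and 1 higher, as without it. Deviations of same-numbered libraries had a correlation of 0.06 over all retained genes and of 0.11 over the 9396 whose counts averaged 100 or more. The block gave 2664 genes lower and 2829 higher without a fold threshold. Depth limits CCNE2 at 8 h, CCND2 at 4 h and CCNE1, which rest on 8 to 65 counts per library.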
